A study of Mus musculus with 6 samples.

Results

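The genes described are 10 members of the NF-kB system: the 5 Rel-family subunit genes Nfkb1, Nfkb2, Rel, Rela and Relb, and 5 genes that restrain or tune these subunits, Nfkbia, Nfkbib, Nfkbie, Nfkbiz and Tnfaip3. They were chosen by name, with earlier results of these data known. All 10 were found among the 20097 genes listed and among the 15410 genes tested. RNA came from mouse bone marrow cells carrying the surface receptor c-Kit, a fraction rich in blood stem and progenitor cells, in 3 libraries of genotype WT and 3 of genotype Runx1 KO. The labels give no agent, strain, age, sex, Cre driver or time of deletion, and do not say whether a library came from 1 animal or a pool, so that p-values measure the spread between these libraries only. Values are normalised read counts, meaning reads per gene after scaling of each library by its size factor, and the libraries held 23297526 to 26793380 reads.

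Runx1 itself was higher in the libraries labelled Runx1 KO, at 3109 ± 356 normalised reads under the label WT and 6399 ± 494 under the label Runx1 KO (SD, n = 3; log2 change 1.04, limma adjusted p = 0.00163). Reads per gene do not show whether an exon was missing, so the label of the knockout was not borne out by this check, and the groups are called by their labels. Every direction below runs from WT to Runx1 KO. Kit was present at 8301 ± 280 and 12649 ± 1093 normalised reads (SD, n = 3), and 8 of 12 stem and progenitor markers rose, with 0 falling by limma or by edgeR, which gave the same counts.

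NF-kB proteins bind DNA as dimers of Rel-family subunits. In a resting cell the dimers are held in the cytoplasm by IkB proteins; signals from tumour necrosis factor, interleukin-1 or Toll-like receptors activate the IKK kinases, which mark the IkB proteins for destruction and release the dimers to the nucleus. Among the genes then switched on are those for IkB-alpha (Nfkbia) and for A20 (Tnfaip3), a ubiquitin-editing enzyme, both of which shut the signal off again, whereas Rela is generally expressed at a steady level. In blood, the system is known for its roles in inflammation, in lymphocytes and in the maintenance of stem cells.

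The stretches upstream of the start sites are shown first because binding sites for NF-kB itself are what links several of these genes in a feedback loop. The kappaB decamer, which opens with GGG, then has a purine, any pair of bases and a pair of pyrimidines, and closes with CC, was searched on both strands over the 250 bases upstream of the outermost start of each gene in RefSeq on GRCm38.p6, with overlapping matches merged. An entry was matched by symbol for 7 of the 10 genes, and Nfkb1, Relb and Nfkbiz had none. Some matches lie on the strand opposite to the gene and so read reversed here. The decamer was present upstream of 5 of the 7, namely Nfkbia, Tnfaip3, Nfkbie, Rel and Nfkb2, and was not found upstream of Rela and Nfkbib, while 7.25% of the 32851 entries of the table held it. Capitals mark the decamer in stretches of 150 bases given 5′ to 3′ on the strand of the gene, for Nfkbia (chr12:55492648-55492797, minus strand), Rel (chr11:23770971-23771120, minus strand), Nfkbie (chr17:45555550-45555699, plus strand) and, for contrast, Rela (chr19:5637333-5637482, plus strand), where none is found.

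Nfkbia: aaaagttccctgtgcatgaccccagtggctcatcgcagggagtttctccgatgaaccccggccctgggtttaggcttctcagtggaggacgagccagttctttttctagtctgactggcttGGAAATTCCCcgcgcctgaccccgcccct
Rel: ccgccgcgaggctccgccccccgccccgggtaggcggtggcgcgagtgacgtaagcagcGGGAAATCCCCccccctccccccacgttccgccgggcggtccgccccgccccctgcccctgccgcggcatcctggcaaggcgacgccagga
Nfkbie: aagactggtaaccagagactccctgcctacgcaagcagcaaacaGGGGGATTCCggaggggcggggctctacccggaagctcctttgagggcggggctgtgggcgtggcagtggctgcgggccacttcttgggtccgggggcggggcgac
Rela: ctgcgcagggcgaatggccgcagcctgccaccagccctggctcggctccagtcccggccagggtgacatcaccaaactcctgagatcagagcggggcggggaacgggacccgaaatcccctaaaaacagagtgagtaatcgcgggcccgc

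Tnfaip3 and Nfkb2 each held the decamer at 2 places, which are shown in windows of 30 bases so that their spacing from the start can be read. The match began 29 bases before the start of Nfkbia, 92 before that of Rel and 106 before that of Nfkbie. In Tnfaip3 the matches began 125 and 12 bases before the start (chr10:19015516-19015545 and chr10:19015411-19015440, minus strand), and in Nfkb2 39 and 11 bases before it (chr19:46304688-46304717 and chr19:46304707-46304736, plus strand). The RefSeq starts used here are 19015410 for Tnfaip3 and 46304737 for Nfkb2; GENCODE M21, from which the gene coordinates given with the values come, has transcripts of both genes that start farther out, so these windows lie inside the genes as annotated there. The stretch shown for Rela ends 59 bases before its RefSeq start.
Tnfaip3 far: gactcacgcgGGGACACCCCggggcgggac
Tnfaip3 near: gtgactggaatttccatcGGAAATCCCCct
Nfkb2 far: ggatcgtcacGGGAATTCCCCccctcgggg
Nfkb2 near: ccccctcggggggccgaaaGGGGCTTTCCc
The RUNX core TGTGGT, searched on both strands of the same windows, was found upstream of 1 of the 7 genes, Rel, beginning 202 bases before its start, against 14.0% of all entries. A match of letters is a description of the sequence and not a measured binding site.

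Of the 10 genes, 4 fell in the libraries labelled Runx1 KO by limma, adjusted over all genes tested: Tnfaip3, Nfkbiz, Nfkbia and Rel. In bulk RNA, fewer cells of a type and less RNA per cell cannot be told apart. Across all genes tested, 11.3% passed as lower and 10.6% as higher, and 5810 of 15410 had an unadjusted limma p under 0.05. None of the 10 rose, as 0 passed upwards in limma, edgeR and DESeq2 and the 5 with an unadjusted limma p under 0.05 were all lower. In the same 4 genes every library labelled Runx1 KO lay below every library labelled WT, which held for 21.9% of all genes tested. The median log2 change of the 10 genes was -0.49, beside -0.0042 for all genes tested. On the recovered reads, edgeR called 2 of the 10 (Rel and Tnfaip3), DESeq2 called 3 (these and Nfkbiz) and limma-voom called the same 4. In limma the count was 0 without Runx1 KO replicate 2 or without Runx1 KO replicate 3, 1 without WT replicate 1 or WT replicate 3, 2 without WT replicate 2, and 5 without Runx1 KO replicate 1. When library totals were used for scaling, 63.5% of 3755 calls over all genes were higher, against 48.4% of 3370 here, and the same number of members, 4, passed.

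**Figure D1:**
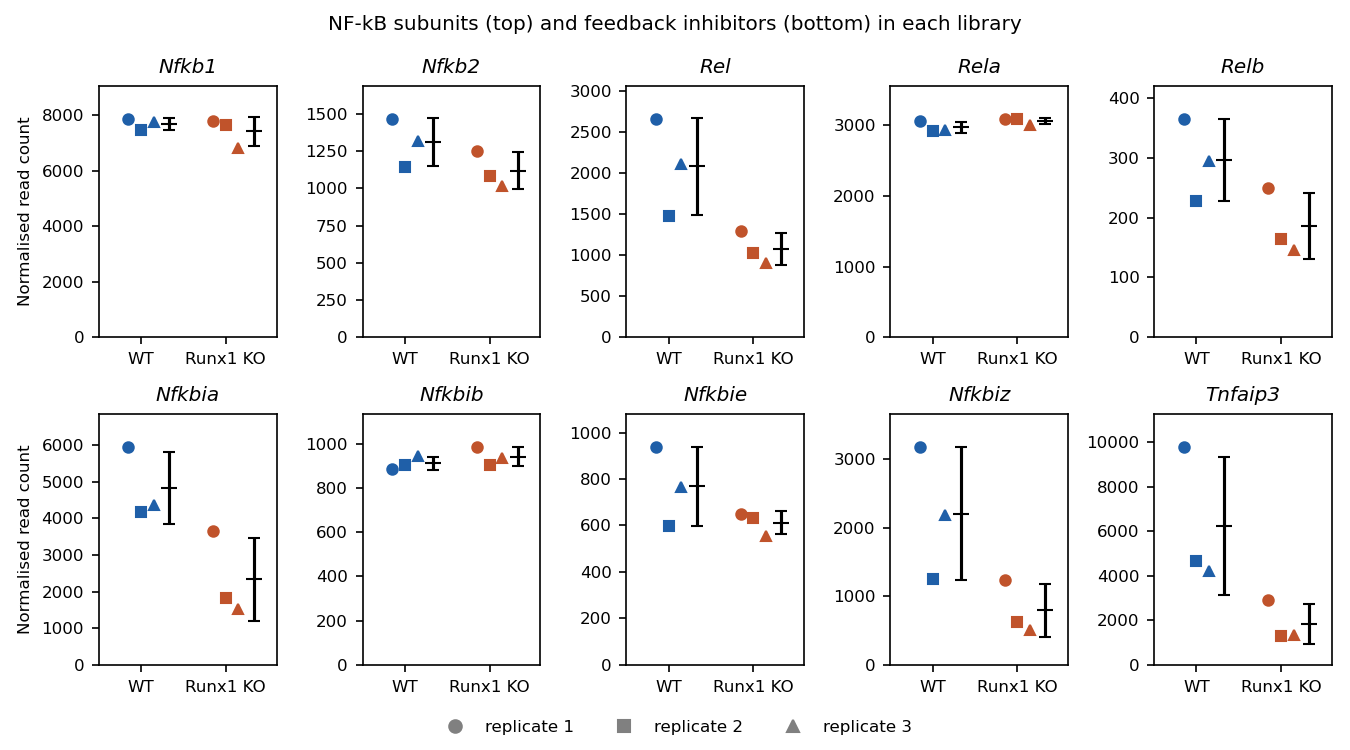
Normalised read count (y axis, from 0) of each of the 10 genes in the 3 WT and the 3 Runx1 KO libraries, with the subunits in the top row and the IkB genes and Tnfaip3 in the bottom row; marker shapes give the replicate number and the black bars the mean and SD. The groups do not overlap for Rel, Nfkbia, Nfkbiz and Tnfaip3, while Rela stays between 2924 and 3092 in every library.

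Among the subunits, Rela and Nfkb1, which together form the classical NF-kB dimer, hardly differed between the groups. Rela (ENSMUSG00000024927; chromosome 19, 5637483 to 5648130, plus strand), the subunit that carries the main activation domain of that dimer, had 3059, 2924 and 2927 normalised reads in WT replicates 1 to 3 and 3092, 3085 and 3005 in Runx1 KO replicates 1 to 3. The groups overlapped, and the log2 change was 0.04 (95% interval -0.08 to 0.17; adjusted p = 0.572). Its SD was 2.59% of the mean in WT and 1.57% in Runx1 KO, close to the 1.86% that counting error alone gives at its lowest read count.

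Nfkb1 (ENSMUSG00000028163; chromosome 3, 135584655 to 135691547, minus strand) encodes a precursor that is cut to a DNA-binding subunit without an activation domain. It had 7878, 7459 and 7774 normalised reads in the WT libraries and 7805, 7642 and 6821 in the Runx1 KO libraries, where replicate 3 was the lowest of the 6. The log2 change was -0.06 (95% interval -0.21 to 0.10; adjusted p = 0.581); it was 0.027 when library totals were used for scaling and 0.0040 without Runx1 KO replicate 3. For both genes the interval leaves out changes as large as that of Rel.

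Rel (ENSMUSG00000020275; chromosome 11, 23736847 to 23770970, minus strand) encodes c-Rel, a subunit with an activation domain that is best known in lymphocytes and myeloid cells. It had 2663, 1480.3 and 2106 normalised reads in WT replicates 1 to 3 and 1293, 1032 and 902 in Runx1 KO replicates 1 to 3. All 3 Runx1 KO libraries lay below the lowest WT library, and the Runx1 KO mean was 51.6% of the WT mean. The log2 change was -0.93 (SE 0.22, 95% interval -1.46 to -0.40), with a limma adjusted p of 0.0277, and edgeR gave an adjusted p of 0.0288. The call was lost without WT replicate 1 (adjusted p = 0.0546), WT replicate 3 (0.0753), Runx1 KO replicate 2 (0.0934) or Runx1 KO replicate 3 (0.0908), with log2 changes from -0.91 to -0.73 in these fits.

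Nfkb2 and Relb encode the subunits of the alternative NF-kB pathway, in which the Nfkb2 precursor is cut after signals from receptors such as CD40. Nfkb2 (ENSMUSG00000025225; chromosome 19, 46304320 to 46312385, plus strand) had 1469, 1147 and 1319 normalised reads in the WT libraries and 1255, 1087 and 1018 in the Runx1 KO libraries. These ranges overlapped, and the log2 change was -0.23 (95% interval -0.50 to 0.05; adjusted p = 0.203). Relb (ENSMUSG00000002983; chromosome 7, 19606217 to 19629438, minus strand) was the least abundant member, with 366, 228 and 295 in the WT libraries and 250.01, 165 and 146 in the Runx1 KO libraries. Its highest Runx1 KO library, replicate 1, lay above its lowest WT library, replicate 2, and the log2 change of -0.68 (95% interval -1.26 to -0.09) did not pass (adjusted p = 0.0940). Without Runx1 KO replicate 1 it was -0.90 and passed (adjusted p = 0.0297). At its lowest, 147 reads, counting error alone gives 8.25% of the value, against an SD of 23.3% of the mean in WT and 29.6% in Runx1 KO.

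Among the inhibitors, Tnfaip3 (ENSMUSG00000019850; chromosome 10, 19000910 to 19015657, minus strand), which encodes A20, changed most. It had 9806, 4653 and 4224 normalised reads in WT replicates 1 to 3 and 2898, 1309 and 1339 in Runx1 KO replicates 1 to 3. Replicate 1 was the highest library of each group, and the lowest WT library still lay above the highest Runx1 KO library. The WT mean was 3.37 times the Runx1 KO mean, and the log2 change was -1.75 (SE 0.41, 95% interval -2.71 to -0.79; limma adjusted p = 0.0247, edgeR 0.0324). The call was lost without WT replicate 2 (adjusted p = 0.0516), Runx1 KO replicate 2 (0.0908) or Runx1 KO replicate 3 (0.0833), and the log2 change ran from -2.12 to -1.37 over the 6 fits that left out 1 library. Of all genes tested, 3.94% had a lower log2 change.

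Nfkbia (ENSMUSG00000021025; chromosome 12, 55489410 to 55492647, minus strand), which encodes IkB-alpha, the inhibitor that is destroyed and resynthesised fastest, had 5959, 4159 and 4368 normalised reads in WT replicates 1 to 3. In Runx1 KO replicates 1 to 3 it had 3641, 1824 and 1539. The groups did not overlap, but Runx1 KO replicate 1 was nearer to the lower WT libraries than to the other two Runx1 KO libraries. The WT mean was 2.07 times the Runx1 KO mean, and the log2 change was -1.13 (SE 0.31, 95% interval -1.87 to -0.40; limma adjusted p = 0.0424). The call was not kept by edgeR (adjusted p = 0.0639) or DESeq2 (0.0638), and it was kept in only 1 of the 6 fits that left out 1 library, that without Runx1 KO replicate 1 (log2 change -1.51, adjusted p = 0.00339). In the other 5 fits the adjusted p ran from 0.0812 without WT replicate 2, through 0.0835 without WT replicate 3, 0.104 without WT replicate 1 and 0.119 without Runx1 KO replicate 3, to 0.138 without Runx1 KO replicate 2.

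Nfkbiz (ENSMUSG00000035356; chromosome 16, 55811375 to 55838899, minus strand) encodes IkB-zeta, an inducible nuclear member of the IkB family that tunes which NF-kB targets are transcribed. It had 3185, 1256 and 2182 normalised reads in WT replicates 1 to 3 and 1239.6, 632 and 510.2 in Runx1 KO replicates 1 to 3. WT replicate 2 and Runx1 KO replicate 1 were almost level, so the groups were separated by a narrow margin. The WT mean was 2.78 times the Runx1 KO mean, and the log2 change was -1.48 (SE 0.41, 95% interval -2.46 to -0.50; limma adjusted p = 0.0441, edgeR 0.0513, DESeq2 0.0315). The call was lost without WT replicate 1 (adjusted p = 0.101), WT replicate 3 (0.106), Runx1 KO replicate 2 (0.137) or Runx1 KO replicate 3 (0.132), with log2 changes from -1.86 to -1.17 over all 6 such fits.

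The remaining IkB genes, Nfkbie and Nfkbib, did not pass. Nfkbie (ENSMUSG00000023947; chromosome 17, 45555703 to 45563169, plus strand), which encodes IkB-epsilon, had 939.8, 598 and 765 normalised reads in the WT libraries and 651, 631 and 556 in the Runx1 KO libraries. These overlapped, with a log2 change of -0.30 (95% interval -0.69 to 0.08; adjusted p = 0.222). Nfkbib (ENSMUSG00000030595; chromosome 7, 28758251 to 28767512, minus strand), which encodes IkB-beta, had 886, 906 and 944 in the WT libraries and 987, 902 and 937 in the Runx1 KO libraries. Its SD was 3.20% of the mean in WT and 4.57% in Runx1 KO, and its log2 change was 0.05 (95% interval -0.12 to 0.21; adjusted p = 0.664). Nfkbib overlaps Sirt2 and Ccer2, and Nfkb2 overlaps Psd, on the opposite strand in GENCODE M21, and whether the authors' counting used the strand is not given in the sources used here, so their reads cannot be told apart in these overlaps.

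**Figure D2:**
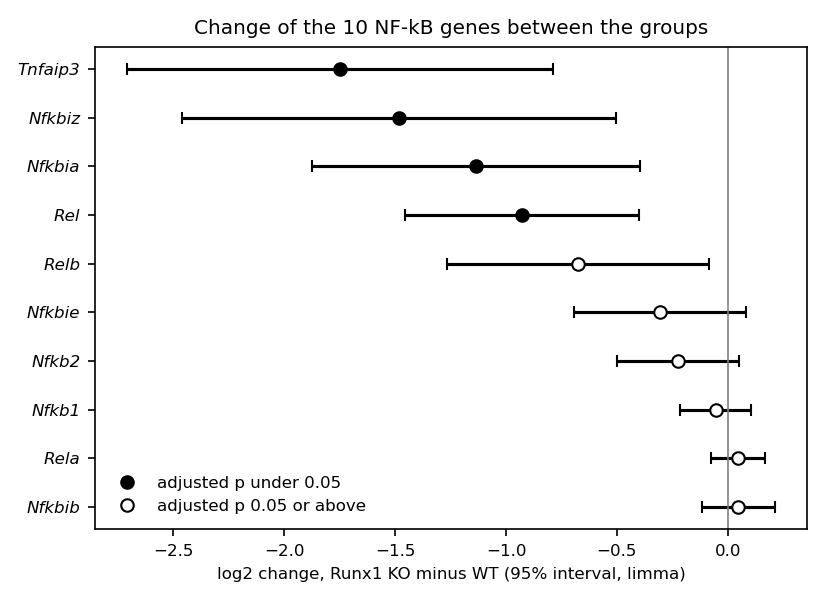
Log2 change of each of the 10 genes (x axis, Runx1 KO minus WT, limma) with its 95% interval, unadjusted for the number of genes; filled points have an adjusted p under 0.05. The 4 filled points run from -1.75 for Tnfaip3 to -0.93 for Rel, and Nfkb1, Rela and Nfkbib lie near 0.

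Levels were compared between the genes as normalised reads per kilobase of the longest coding transcript. In WT the order was Nfkbia (3060.2 ± 624), Nfkb1 (1871 ± 53.0), Tnfaip3 (1408 ± 702), Rela (1093 ± 28.4), Nfkbiz (537 ± 234), Nfkbib (443 ± 14.2), Nfkb2 (341 ± 41.9), Nfkbie (315 ± 70.1), Rel (279 ± 79.3) and Relb (134 ± 31.2; all SD, n = 3). Tnfaip3 and its neighbours Nfkb1 and Rela lay within the SD of Tnfaip3, as did Nfkbiz and Nfkbib within the SD of Nfkbiz, and Nfkb2, Nfkbie and Rel differed by less than the SD of Rel. In Runx1 KO the order was led by Nfkb1 (1803 ± 128) and Nfkbia (1479 ± 723), followed by Rela (1127 ± 17.7), and these neighbours were within the SD of Nfkbia. Nfkbib (457 ± 20.9) and Tnfaip3 (418 ± 205) came next and lay within the SD of Tnfaip3. Nfkb2 (291 ± 31.7), Nfkbie (252 ± 20.5), Nfkbiz (193 ± 94.9), Rel (144 ± 26.7) and Relb (84.6 ± 25.1) followed, and Nfkbiz was within its own SD of Nfkbie and Rel. The place of Nfkb1 depends on the length used: per kilobase of all annotated exons its rank was 4 in WT and 3 in Runx1 KO.

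The ratio of an inhibitor to Rela within a library does not depend on how libraries are scaled. Per length, Nfkbia stood at 3.35, 2.45 and 2.57 times Rela in WT replicates 1 to 3 and at 2.03, 1.02 and 0.881 times in Runx1 KO replicates 1 to 3. For Tnfaip3 over Rela the ratios were 1.97, 0.977 and 0.887 in the WT libraries and 0.576, 0.261 and 0.274 in the Runx1 KO libraries. The ratio of Nfkb1 to Rela was 1.71 ± 0.037 in WT and 1.599 ± 0.089 in Runx1 KO (SD, n = 3). None of these 3 ratios overlapped between the groups, and the share of all genes for which this holds was not computed. For Nfkbia and Tnfaip3 the ratio largely repeats their own separation, since Rela was nearly level. For Nfkb1 the margin was narrow, at 1.683 in WT replicate 2 against 1.665 in Runx1 KO replicate 1. The exact permutation test, two-sided, gave p = 0.1 for each, and also for Rel and Nfkbiz over Rela. This is the smallest value that 3 libraries against 3 allow, so that the test does not set them apart.

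Of the 10 genes, Tnfaip3 and Nfkbiz differed most between the groups and also varied most within them, as SD over the mean. WT replicate 1 was the highest WT library for 9 of the 10 genes, all but Nfkbib, and Runx1 KO replicate 1 was the highest Runx1 KO library for all 10. The share of all genes tested with this order was not computed. Some of these differences were small, as for Rela, with 3092 and 3085 normalised reads in Runx1 KO replicates 1 and 2. In Tnfaip3, the SD was 49.9% of the mean in WT and 49.2% in Runx1 KO, and in Nfkbiz 43.7% and 49.2%, whereas counting error alone gives at most 2.75% and 4.42% in their libraries. Without both libraries numbered 1, an alternative added after the values were seen, 5 of the 10 genes passed, all lower: the same 4 and Relb (adjusted p = 0.0354), and 3785 genes passed in all.

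Summed markers of several blood lineages moved with the same libraries. The lists hold genes of early as well as of mature cells. The summed level of 12 B-lymphoid markers was 35063, 8194 and 13380 normalised reads in WT replicates 1 to 3 and 3717, 1326 and 1364 in Runx1 KO replicates 1 to 3, and 9 of the 12 fell. The 12 monocyte and macrophage markers summed to 70992 to 89129 in WT and 38885 to 60319 in Runx1 KO, with 5 of the 12 lower. The 15 neutrophil markers summed to 316267 to 437262 in WT and 144917 to 214261 in Runx1 KO, with 10 of the 15 lower. For each of these lists replicate 1 was the highest library of its group, as it was for Tnfaip3, Nfkbia and Nfkbiz. Single genes could differ from the sum of their list. Mpo, Elane and Prtn3 of the neutrophil list were highest in WT replicate 2. Their log2 changes were -0.14, -0.35 and -0.41, whereas Ngp of the same list had -2.64. The 12 dendritic cell markers, with 0 of 12 called by limma and 3 at an unadjusted p under 0.05, summed to 30195 to 31597 in WT and 24536 to 35315 in Runx1 KO, again with replicate 1 the highest of each group. The 12 T and NK markers summed to 7150.0 to 7989.7 in WT and 4556 to 5181 in Runx1 KO, with 2 of the 12 lower. Most of this sum was 1 gene, Nkg7 (5840 ± 593 in WT and 4125 ± 358 in Runx1 KO; SD, n = 3). The T-cell gene Cd3e had 76.2, 31.3 and 25.9 in the WT libraries and 74.3, 7.93 and 9.95 in the Runx1 KO libraries. No marker of these lists was at 0 in all Runx1 KO libraries. The part of these cells in the NF-kB result was not tested.

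**Figure D3:**
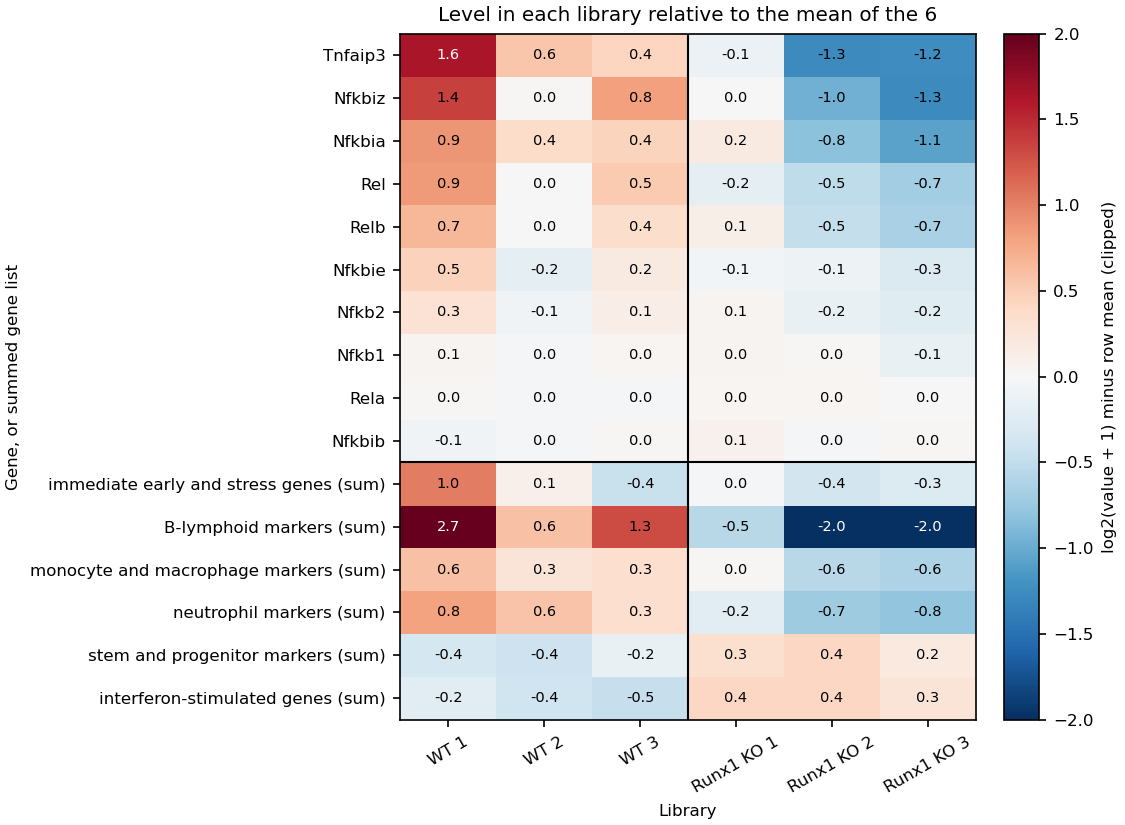
Level of each gene, and summed level of 6 gene lists, in each library (columns), as log2(value + 1) minus the mean of the row over the 6 libraries; red is above and blue below the mean, with the number printed in each cell and colours clipped at -2 and 2. Tnfaip3, Nfkbiz, Nfkbia and Rel have their highest value in WT replicate 1 and their lowest values in Runx1 KO replicates 2 and 3, as do the B-lymphoid, monocyte and neutrophil sums, while Nfkb1, Rela and Nfkbib stay near 0 in all 6 libraries.

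The rest of the pathway was read from 6 lists with 66 genes, of which 63 were tested; 11 fell and 2 rose, beside the 11.3% and 10.6% of all genes, and their median log2 change was -0.13. Most kinases that carry the signal differed little. Of 13 IKK and upstream kinases, 0 passed by limma or edgeR and 1 by DESeq2, 2 had an unadjusted limma p under 0.05, and the median log2 change was -0.05. The catalytic IKK genes Chuk and Ikbkb had log2 changes of -0.12 and -0.08 (adjusted p = 0.194 and 0.465), and their scaffold Ikbkg had 0.17 (adjusted p = 0.0995). The kinase gene farthest from 0 was Map3k8, at -0.79 (adjusted p = 0.0639).

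Of 15 adaptors and activating ubiquitin ligases, 2 fell and 0 rose in limma and edgeR alike. Across all genes tested, limma called 11.3% lower and 10.6% higher. An unadjusted limma p under 0.05 was reached by 5 of the 15, beside 5810 of all 15410 genes tested. Malt1, which encodes a protease that acts in signalling from antigen receptors to IKK, was among the genes that fell. It had 1992 ± 279 normalised reads in WT and 1469 ± 137 in Runx1 KO (SD, n = 3). Its log2 change was -0.43 (limma adjusted p = 0.0392). Among 15 deubiquitinases and negative regulators beside A20, 3 fell and 2 rose. The falls were small, in Pdlim2 (-0.48), Tax1bp1 (-0.39) and Tank (-0.25), and Tax1bp1, an adaptor of A20, went from 9029 ± 428 to 6872 ± 315 normalised reads (SD, n = 3). The genes that rose were Nlrc5 (1.47) and Usp18 (1.103), both of which are also known as interferon-inducible. Of 4 other IkB family genes, Nkiras2 fell (-0.37, adjusted p = 0.04998), and it did not pass in edgeR. Nfkbid, another nuclear IkB, had a log2 change of -0.96 without passing (adjusted p = 0.0673), and Bcl3 had 0.03.

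The ligands and receptors above the pathway included some of the largest differences. Of 8 TNF and IL-1 ligands, 5 were tested and 1 fell, Tnfsf13b, which encodes the B-cell survival factor BAFF, with 697, 407 and 412 normalised reads in WT and 79.5, 29.7 and 40.8 in Runx1 KO (log2 change -3.38, adjusted p = 0.00279). Tnf itself had 1253, 681 and 877 in WT and 658, 166.5 and 119 in Runx1 KO, and Il1b had 3439.7, 979 and 865 in WT and 792, 195 and 222 in Runx1 KO. For both ligands the groups did not overlap, but neither passed (log2 changes -1.94 and -2.13, adjusted p = 0.0585 and 0.0643). Among 11 receptors, 4 fell and 0 rose by limma, edgeR and DESeq2, with 5 at an unadjusted p under 0.05. The receptor for BAFF, Tnfrsf13c, went from 679 ± 433 to 77.5 ± 18.1 normalised reads (log2 change -2.95, adjusted p = 0.00536), and the interleukin-1 receptor Il1r1 from 358 ± 56.4 to 151 ± 14.5 (log2 change -1.23, adjusted p = 0.00331).

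Known targets of NF-kB did not move as a block. Of 34 targets chosen, 33 were among the genes listed and 31 were tested, of which 7 fell and 2 rose in both limma and edgeR, and the median log2 change was -0.34. The lowest were Irf4 (-4.59, adjusted p = 0.0117) and Ccr7 (-4.32, adjusted p = 0.00930), both genes of lymphocytes and dendritic cells, and Il6, which had 26.2 to 56.6 normalised reads in WT and 1 recovered read in each Runx1 KO library. WT replicate 1 held most of the Irf4 reads, with 5487 normalised reads against 703 and 1213 in the other WT libraries. The 2 genes that rose were Cxcl10 (162 ± 27.7 to 367 ± 113 normalised reads; log2 change 1.13, adjusted p = 0.0242) and Irf1 (2430.5 ± 259 to 3714 ± 718; log2 change 0.60, adjusted p = 0.0342), which are targets of interferon signalling too. Other targets, such as Icam1 (0.07), Sod2 (0.07) and Xiap (0.05), lay near 0.

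**Figure D4:**
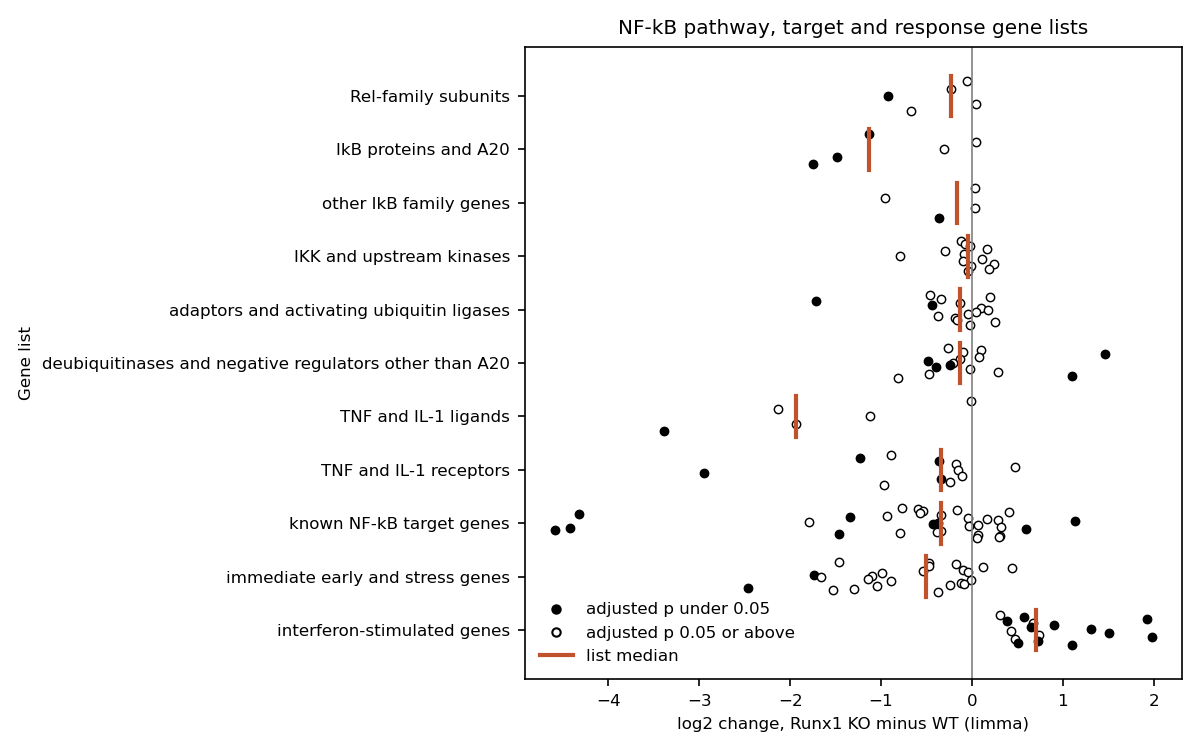
Log2 change (x axis, Runx1 KO minus WT, limma) of every tested gene of the NF-kB lists, of known NF-kB targets, of immediate early and stress genes and of interferon-stimulated genes (rows), with filled points for an adjusted p under 0.05 and a bar at the median of each list. Most kinases lie close to 0 (median -0.05), the IkB and A20 list has its median at -1.13, and the interferon list lies above 0 throughout.

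Immediate early and stress genes, which rise quickly during cell handling, were checked because Nfkbia, Nfkbiz and Tnfaip3 belong to the same fast class of transcripts. Of 24 such genes, 2 fell and 0 rose in limma and in edgeR, beside 11.3% lower and 10.6% higher among all genes in limma. An unadjusted limma p under 0.05 was reached by 7 of the 24, beside 5810 of all 15410 genes tested. The median log2 change was -0.51. The falls were Klf4 (-2.47, adjusted p = 0.00914), which is also expressed in monocytes, and Fosl1 (-1.74, adjusted p = 0.0152). Of the 24 log2 changes, 22 lay below 0 and 2 above it. Fos, Jun and Egr1 had log2 changes of -0.04, -0.12 and 0.44 (adjusted p = 0.968, 0.799 and 0.404). Nr4a1, Atf3 and Klf6 had -1.53, -1.47 and -1.29 without passing (adjusted p = 0.119, 0.0698 and 0.0687). The sum of the 24 genes was 196204, 102804 and 70521 normalised reads in WT replicates 1 to 3 and 94069.8, 74215 and 79284 in Runx1 KO replicates 1 to 3, so that WT replicate 1, the highest library for the inducible NF-kB genes, stood apart in this sum too. The part of handling in the NF-kB result was not tested. The interferon-stimulated genes ran the other way, with 11 of 16 higher and 0 lower in limma and edgeR, 14 at an unadjusted p under 0.05, and a median log2 change of 0.70. Oasl2 (1.98) and Ifit1 (1.93), which encode antiviral proteins, rose most among them.

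Likeness of pattern was measured as the root mean square difference of mean-centred log2 values over the 6 libraries, among the 11199 other tested genes with a mean of at least 100 normalised reads. The genes most like Rel were Tfeb (0.0405), which encodes a regulator of lysosome genes, and Skil (0.0609), on a scale where the values of Rel itself had a root mean square of 0.547. For Nfkbia they were Nfil3 (0.116) and Xdh (0.119), against 0.702 for Nfkbia itself. For Nfkbiz they were Tlr13 (0.0982), which encodes an endosomal Toll-like receptor, and Slc2a6 (0.117), one of the listed NF-kB targets, against 0.921. For Tnfaip3 they were Mcemp1 (0.119) and Sgk1 (0.133), against 1.03. Of the 4 members, Rel was nearer to Relb (0.162) than to any other member, and Tnfaip3 was nearest to Nfkbiz (0.324).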

How the data were processed

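RNA-seq values per gene were taken for 3 WT and 3 Runx1 KO libraries. The submitters' processing notes name HISAT2, HTSeq 0.9.1 and the mouse build mm10 (GRCm38); the tool that scaled the libraries and the strand setting of the counting are not given in the sources used here. The deposited signal values are gene counts that the authors scaled by library, as the values themselves show: in each library 100% were whole multiples of 1 step within 0.001, which gave back whole reads. These reads totalled 23297526 to 26793380 per library, and 3 reads correspond to 2.88 to 3.14 normalised reads.

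Genes were kept by edgeR's filterByExpr (minimum count 10, minimum total 15), which left 15410 of 20097. The log2 of the value plus 1 was tested with limma 3.58.1 (R 4.3.3, trend in the variance, both groups in 1 fit, no covariates), with Benjamini-Hochberg adjustment over all genes tested and a threshold of 0.05. A fold change on this scale is understated for low genes. Every adjusted p without a named tool is limma's. edgeR 4.0.16 (quasi-likelihood) and DESeq2 1.42.0 were run on the recovered reads as alternatives, beside limma-voom, other pseudocounts, filters and scalings, a replicate block, and each library left out in turn. The fits were tested on simulated counts with a fixed dispersion and no shift shared by replicates. The simulated spread was narrower than that of Tnfaip3, Nfkbiz, Nfkbia and Rel here, so that test does not cover their calls.

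The members and gene lists were chosen with earlier results of these data known. Members were described in full; of each list, up to 3 called genes a direction with the largest changes were named, and for each called member the 2 tested genes most like it. One gene that this rule names is not reported here. Genes named that did not pass, and further called genes of a list, were picked after their values were seen. Counting intervals are not given, since spread between libraries is the larger error.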

Additional observations from a re-analysis of the deposited data

How the results depend on the processing

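Tnfaip3, Nfkbiz, Nfkbia and Rel stayed lower in Runx1 KO in every alternative run. Of 100 log2 changes of the members recomputed with all libraries, 95 kept their direction and their side of the threshold, 3 lost the call, 1 gained it and 1 changed sign. Of 60 with 1 library left out, 42 kept both, 16 lost the call, 1 gained it and 1 changed sign. The number of members called was 2 with edgeR, against 4, and ran from 0 to 5 over the fits without some libraries, in which the number of genes called ran from 1367 (without Runx1 KO replicate 2) to 3785 (without both libraries numbered 1), against 3370. Fewer libraries enter those fits. The log2 change of Nfkb1 was 0.0266 with library totals, a scaling that moved the median of all genes by 0.08, and ran from -0.0931 to 0.00399 with libraries left out; that of Nfkbib ran from -0.00878 to 0.0769. The cause of these shifts was not tested. With the replicate block, 3843 genes and 5 members (Relb added, adjusted p = 0.0287) passed. Same-numbered libraries had correlations of their deviations of 0.287, 0.129 and -0.0104, and WT replicates 2 and 3 correlated best with another number, so the numbers were not taken to pair the libraries. Under the block the calls among ligands went from 1 to 4, among targets from 9 to 15 and among immediate early genes from 2 to 7. The lowest read count of any member was 147, in Relb, so counting error was small beside the spread between libraries in the members called.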

Other observations

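Other lineages of the same bone marrow fraction differed in both directions, although their genes are not part of the NF-kB system. Of 10 tested megakaryocyte and platelet markers 5 rose and 0 fell by limma, while DESeq2 called 7 higher and 1 lower. Of 11 erythroid markers 6 fell and 0 rose by limma, while DESeq2 called 6 lower and 2 higher. Among the erythroid markers, Klf1 and Epor had log2 changes of 0.74 and 0.68 in limma without passing (adjusted p = 0.0816 and 0.107). Of 8 tested mast cell and basophil markers 5 fell and 1 rose. The megakaryocyte and platelet markers summed to 24240.4 normalised reads in WT replicate 1 and to 6675 and 7760.1 in the other WT libraries. Most of that gap was 1 gene, Thbs1, which had 18629 normalised reads in WT replicate 1 against 1962 and 2213 in the other WT libraries and was not called (limma adjusted p = 0.350).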
